A study of Mus musculus with 12 samples.

Results

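Knockdown of Kitl in mouse pancreatic stellate cells was examined across all genes, in the 6 of the study's 12 RNA-seq libraries that carry a hairpin. The study's design text describes stable mouse pancreatic stellate cell lines made to ask what Kitl does within these cells. Of the 6 libraries, 3 came from ImPSC-1 cells labelled shKitl, with the genotype given as Kitl knock down, and 3 from ImPSC-1 cells labelled shCtrl, with the genotype given as WT and a description naming PLKO-1, a hairpin vector. Both groups are stable derivatives of 1 cell line. The descriptions of all 3 shKitl libraries carry the same name, sh2KitL, so that 1 named construct is set against 1 control line. The sources used here give neither the hairpin sequences nor whether a line is 1 clone. Loss of Kitl, other effects of the hairpin and the making of the line cannot be told apart in this design. The other 6 libraries overexpress Egfp or Kitl and enter only alternative fits.

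Each description ends in a P number, which no label explains. The shKitl libraries are P13, P14 and P15 and the shCtrl libraries are P14, P15 and P16, so that the groups share P14 and P15. Values of single libraries are listed below in that order. They are in CPM, a gene's count relative to all reads counted in genes, scaled between libraries by the TMM method. No label states whether the 3 libraries of a line are separate cultures. The spread that p-values rest on here may therefore be technical.

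Kitl encodes stem cell factor, a ligand that cells display on their surface or release, and which binds the receptor tyrosine kinase KIT on mast cells, blood progenitors, melanocytes and germ cells. KIT passes the signal to the RAS-ERK and PI3K pathways. Pancreatic stellate cells are mesenchymal cells of the exocrine pancreas that hold retinoid droplets at rest and, once activated, make smooth muscle actin and collagen. All 14 stellate cell and fibroblast markers, among them Col1a1, Vim and Pdgfrb, had counts, and 13 had enough to test. The 14 summed to between 7764 and 18251 CPM in shKitl libraries and between 5894 and 7616 CPM in shCtrl libraries. The median of the tested members was 102 to 224 CPM in shKitl and 93.8 to 216 CPM in shCtrl libraries.

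Kitl itself (ENSMUSG00000019966, plus strand of chromosome 10, 100015630 to 100100416, GRCm38) stood at 25.0, 24.8 and 30.2 CPM in shKitl cells, against 73.8, 75 and 77.6 CPM in shCtrl cells. Each shKitl library lay below each shCtrl library, by a log2 of at least 1.29. The means were 26.7 ± 3.09 CPM in shKitl and 75.5 ± 1.97 CPM in shCtrl cells (SD, n = 3 each), leaving 35.3% of the shCtrl level after knockdown. The difference was -1.57 on the log2 scale between the P14 libraries and -1.31 between the P15 libraries. In the edgeR fit to the 6 libraries it was -1.50 (SE 0.13, adjusted p = 0.10), which does not pass 0.05. An exact permutation test over the 6 libraries gave a two-sided p of 0.1, which is the smallest possible with 3 libraries a side. Over the 23 alternatives the log2 value ran from -1.61 to -1.42 and the adjusted p from 7.35e-17 to 0.956, and 7 of them passed. In bulk RNA, fewer cells with a transcript and less of it per cell cannot be told apart.

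Kit, the receptor gene, had 1, 1 and 0 counts in shKitl libraries and 2, 1 and 0 counts in shCtrl libraries. Those counts were too few to test, and a difference in Kit was not detectable at this depth. Of the 23 tested members of a list of KIT and its signalling partners, Kitl alone fell when libraries of equal P number were compared by edgeR, and none rose, where 1.31% of all genes rose and 0.659% fell. The list's median log2 difference was -0.08, against 0.00 over all tested genes. Ptpn6, a phosphatase that restrains KIT in blood cells, had 2.90, 2.06 and 1.98 CPM in shKitl and 1.06, 0.804 and 0.560 CPM in shCtrl. All 3 shKitl libraries lay above the shCtrl range, and DESeq2 called it in the 6 libraries (adjusted p = 0.0266), but not when the P14 and P15 libraries were compared with the P number as a block (adjusted p = 0.526). Leukocyte genes were otherwise scarce, with Ptprc not tested and Cd3e, Mcpt4, Tpsb2 and Tyrobp at 0 counts in all 6 libraries.

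Feedback genes that ERK signalling switches on were lower by their median at equal P numbers. Among 22 tested ERK response genes, 13 were lower in shKitl at both P14 and P15 and none was higher at both. Over all tested genes 68.2% had the same sign at both, counting either direction. The share of all genes lower at both was not counted, so the 13 have no like figure beside them. The list medians were -0.36 at P14 and -0.46 at P15, beside 0.01 and -0.03 over all tested genes. Over the 6 libraries the median was -0.10, and -0.26 to -0.06 with each library left out. Spry4, a feedback inhibitor of receptor tyrosine kinases, had 10.5, 11.7 and 11.0 CPM in shKitl and 18.6, 19.6 and 21.1 CPM in shCtrl, with no overlap and little spread within either group (log2 -0.83, SE 0.14). Etv5, an ETS transcription factor downstream of ERK, had 16.1, 21.2 and 25.1 CPM in shKitl and 35.6, 41.6 and 37.9 CPM in shCtrl, also without overlap. The phosphatase gene Dusp5 had 29.1, 21.6 and 44.8 CPM in shKitl and 38.6, 73.0 and 72.9 CPM in shCtrl. Its groups overlapped over 6 libraries, yet it was the 1 list member that fell at equal P numbers (log2 -0.76, SE 0.14, adjusted p = 0.0431). No member rose.

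**Figure D1:**
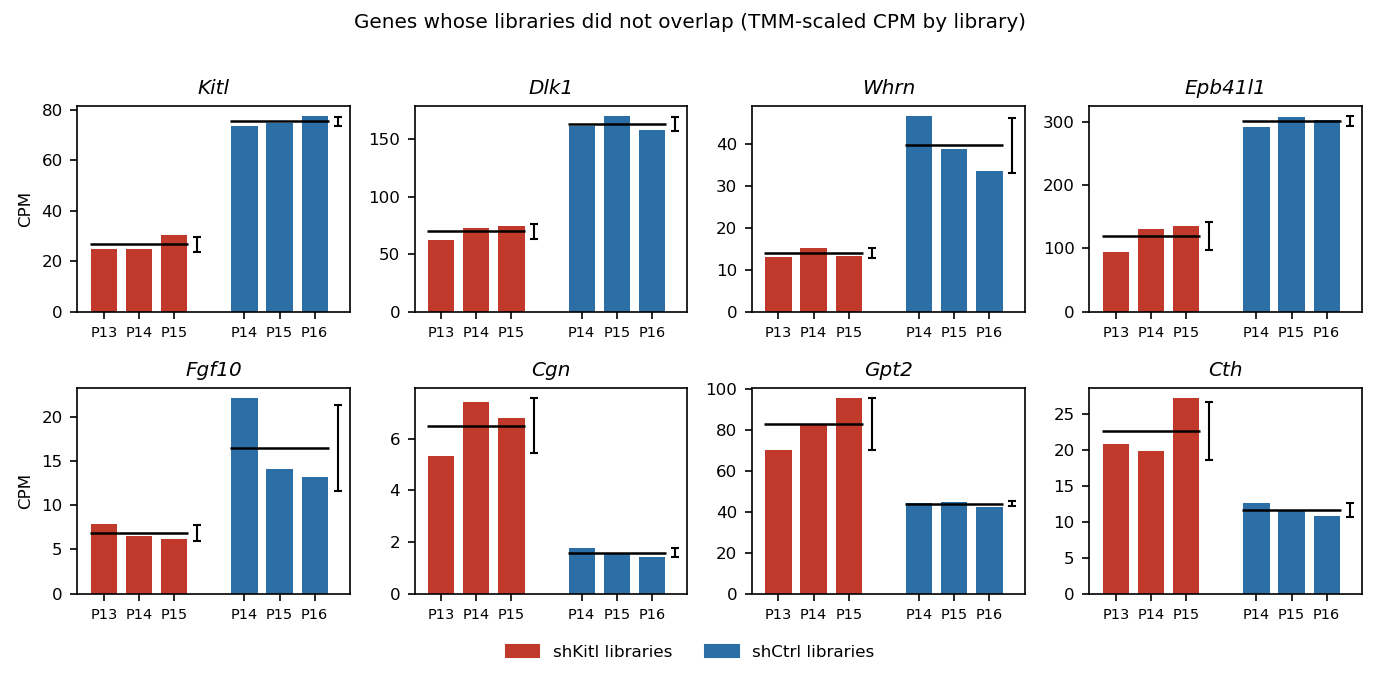
CPM of 8 genes in each library, with shKitl libraries P13 to P15 in red on the left and shCtrl libraries P14 to P16 in blue on the right of each panel. Horizontal lines are group means and whiskers their SD (n = 3). In all 8 panels the groups do not overlap: Kitl, Dlk1, Whrn, Epb41l1 and Fgf10 are lower, and Cgn, Gpt2 and Cth higher, in every shKitl library.

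Across all genes the spread between libraries was wide. Reads counted in genes ran from 26888748 to 27807736 per shKitl library and from 24979742 to 28831163 per shCtrl library, and ERCC spike-in RNA took 0.446% to 0.662% of counts in shKitl and 0.499% to 0.563% in shCtrl. The first principal component held 68.3% of the variance. The shKitl libraries P13, P14 and P15 lay at -44.8, -70.8 and 8.15 on it, and the shCtrl libraries P14, P15 and P16 at -13.9, 45.9 and 75.4. The P15 library of shKitl thus lay within the range of the shCtrl libraries. Between the P15 and P14 libraries 2289 genes of shKitl and 1432 genes of shCtrl differed by a log2 of at least 1, against 1434 genes between shKitl and shCtrl at P14 and 1010 at P15.

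Over the 6 libraries edgeR's quasi-likelihood test called no gene of 14386 at an adjusted p of 0.05. At an unadjusted p of 0.05, 1261 genes were higher (8.77%) and 1038 lower (7.22%). DESeq2 called 298 higher (2.2% of 13542) and 210 lower (1.55%), limma-voom none. The 3 shKitl libraries all lay above the 3 shCtrl libraries for 1425 genes (9.91%), and all below for 1434 (9.97%).

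Comparing libraries of equal P number gave more. An edgeR fit to the P14 and P15 libraries alone, with the P number as a block, called 287 of 14569 genes, 191 higher (1.31%) and 96 lower (0.659%) in shKitl. With 4 libraries and 3 coefficients it leaves 1 residual degree of freedom, so the test leans on the spread borrowed across genes, and no library can be left out of it. In these libraries DESeq2 called 356 higher (2.71% of 13156) and 186 lower (1.41%), and limma-voom 205 higher (1.41% of 14569) and 99 lower (0.68%). Of the 287 genes 280 were shared with the DESeq2 fit and 274 with the limma-voom fit. Of the 287, 182 (63.4%) were also among the 508 genes that DESeq2 called in all 6 libraries (35.8% of those). The same 4 libraries without the block gave no edgeR call. In what follows, "rose" and "fell at equal P numbers" are used of genes called by the edgeR fit with the block, and the sizes after these verbs (log2 fold changes) and the adjusted p-values are from it unless another fit is named. Over the 6 libraries the adjusted p of the named genes ran from 0.10 to 0.925.

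Without a test, 410 genes differed by a log2 of at least 1 in the same direction at P14, at P15 and in the 6-library fit. Of them 291 were higher (2.02% of tested genes) and 119 lower (0.827%), and for 268 the 6 libraries did not overlap. In the opposite case, 28 genes differed by at least 1 at both P numbers but in opposite directions. The sign was the same at both for 68.2% of genes, and across genes, which are not independent replicates, the differences at P14 and P15 had a Pearson r of 0.488.

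**Figure D2:**
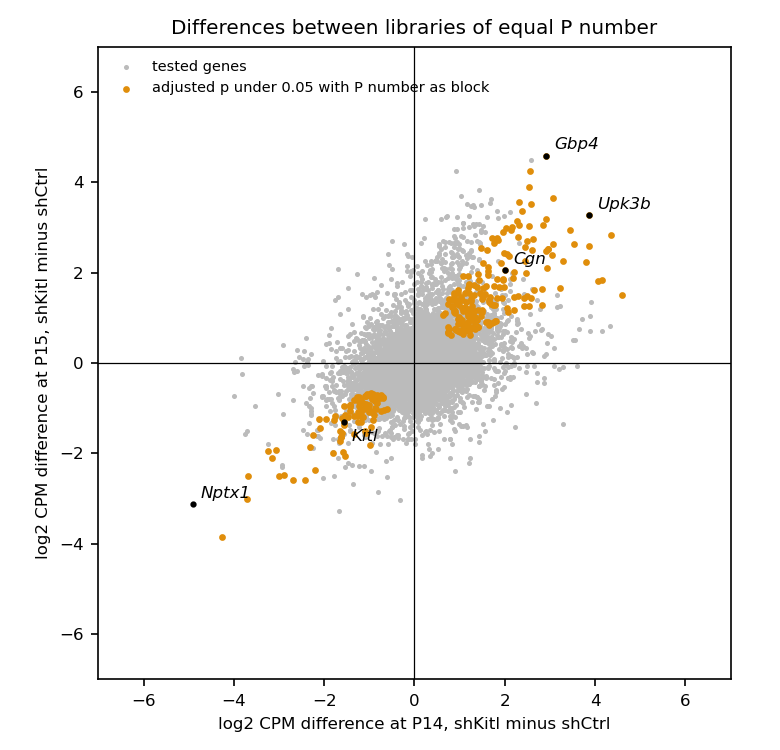
Each point is a tested gene, with the log2 CPM difference of shKitl minus shCtrl between the P14 libraries on the horizontal axis and between the P15 libraries on the vertical axis. Genes called with the P number as a block (orange) lie along the diagonal. This is largely by construction, since the test weighs a gene's change against the gap between its P14 and P15 differences. Among the called genes, the differences of Gbp4 and Upk3b are positive and large at both P numbers, and those of Kitl are negative at both. At P15 Upk3b stood at only 1.42 CPM in shKitl and 0.0804 CPM in shCtrl, so its difference there rests on low levels. Nptx1, with negative differences at both, was not called.

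Genes lower in every shKitl library included several of the imprinted Dlk1-Meg3 domain on chromosome 12. Dlk1 (ENSMUSG00000040856, plus strand of chromosome 12, 109452823 to 109463336, GRCm38), a Notch-like surface protein of preadipocytes and fetal mesenchyme expressed from the paternal copy, stood at 62.2, 73.1 and 74.5 CPM in shKitl cells, against 162, 170.4 and 158 CPM in shCtrl cells. The means were 69.9 ± 6.75 CPM in shKitl and 164 ± 6.19 CPM in shCtrl (SD, n = 3 each), a log2 of -1.23 (SE 0.12), and the P14 and P15 differences were -1.15 and -1.19. It did not pass over the 6 libraries (adjusted p = 0.147) and fell at equal P numbers (adjusted p = 0.0137). Meg3, a non-coding RNA of the maternal copy of the same domain (ENSMUSG00000021268, plus strand of chromosome 12, 109541001 to 109571726), had 0.424, 0.674 and 0.559 CPM in shKitl and 6.21, 2.33 and 1.38 CPM in shCtrl. Rian, another maternal non-coding RNA of the domain (ENSMUSG00000097451, plus strand of chromosome 12, 109603940 to 109661716), had 1.24, 1.42 and 0.634 CPM in shKitl and 9.62, 4.22 and 3.27 CPM in shCtrl. Both were low throughout and fell at equal P numbers (log2 -2.68, SE 0.40 for Meg3 and log2 -2.74, SE 0.28 for Rian). Their shCtrl levels were lower at P16 than at P14, while those of Dlk1 stayed within 158 to 170 CPM. The sources used here do not state whether counting used strand, so reads of overlapping transcripts cannot be told apart.

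Further genes lower in every shKitl library have varied roles. Whrn, the scaffold whirlin of stereocilia and synapses, had 13.1, 15.3 and 13.2 CPM in shKitl and 46.6, 38.8 and 33.6 CPM in shCtrl, and fell at equal P numbers by 1.57 (SE 0.15). Epb41l1, which ties the membrane to spectrin and actin, had 94.5, 131 and 135 CPM in shKitl and 293, 308 and 304 CPM in shCtrl. Adgrl1, an adhesion G protein-coupled receptor (latrophilin), had 12.6, 14.5 and 13 CPM in shKitl and 35.3, 29.4 and 25.2 CPM in shCtrl. In none of these 3 did the groups overlap, and the shKitl mean was 35.0%, 39.9% and 44.7% of the shCtrl mean. Npnt, the matrix ligand nephronectin of an integrin of kidney and muscle, had 13.7, 6.53 and 10.2 CPM in shKitl and 32.7, 37.2 and 39.8 CPM in shCtrl and fell by 2.08 (adjusted p = 0.00739). Ptger4, the EP4 receptor of prostaglandin E2, had 2.93, 2.84 and 3.06 CPM in shKitl and 7.34, 9.24 and 11.1 CPM in shCtrl. Gcnt4, a glycosyltransferase that branches O-glycans, had 4.03, 4.01 and 5.07 CPM in shKitl and 17.3, 13.9 and 13.7 CPM in shCtrl. All 3 lay well below the shCtrl range in every shKitl library. Hivep3, a zinc finger transcription factor, and Bmp2k, a kinase of clathrin coat proteins, fell by less (log2 -1.10 and -0.76, SE 0.15 and 0.13), with 26.1, 27.2 and 29.7 CPM of Bmp2k in shKitl and 46.6, 49.9 and 50.5 CPM in shCtrl.

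Growth factors went in both directions. In a list of 37 growth factors and receptors, 34 were tested, and 5 fell while 3 rose at equal P numbers, where 1.31% of all genes rose and 0.659% fell. The list median was 0.31 over the 6 libraries, 0.32 at P14 and -0.06 at P15. Fgf10, which drives budding of the pancreas and lung, had 7.92, 6.49 and 6.19 CPM in shKitl and 22.1, 14.1 and 13.2 CPM in shCtrl and fell by 1.48 (SE 0.22). Fgf2 had 16.2, 16.4 and 7.64 CPM in shKitl and 32.7, 27.2 and 32.1 CPM in shCtrl, and Fgf7, keratinocyte growth factor, had 77.2, 37.3 and 52.2 CPM in shKitl and 87.7, 88.5 and 92.6 CPM in shCtrl. For all 3 the shKitl libraries lay below the shCtrl range. Ereg, the EGF receptor ligand epiregulin, had 15.2, 9.76 and 12.8 CPM in shKitl and 23.4, 27.2 and 32.0 CPM in shCtrl, also without overlap, and fell by 1.17. Hbegf, another EGF receptor ligand, had 52.0, 35.8 and 74.9 CPM in shKitl and 57.1, 154 and 173 CPM in shCtrl and fell by 0.85, although its groups overlapped over the 6 libraries. The 3 that rose were Igf1 (log2 1.76), the binding protein Igfbp4 (1.42) and Pdgfb (2.92). Igf1 had 15.2, 35.3 and 7.94 CPM in shKitl and 7.57, 3.46 and 3.27 CPM in shCtrl. Ptgs2, the cyclooxygenase that makes prostaglandin precursors, had 130.0, 82.7 and 155 CPM in shKitl and 189, 386 and 453 CPM in shCtrl and fell by 1.25 (SE 0.14).

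Among surface proteins of cell contact, Cd44, the hyaluronan receptor, had 186, 138 and 303 CPM in shKitl and 304, 559 and 642 CPM in shCtrl, and the cadherin gene Cdh6 had 13.6, 14.8 and 36.2 CPM in shKitl and 43.6, 70.5 and 77.4 CPM in shCtrl. Both fell at equal P numbers (log2 -1.0, SE 0.16 for Cd44 and log2 -1.24, SE 0.18 for Cdh6). Another cadherin of mesenchyme, Cdh11, rose by 0.99 (SE 0.14), with 160.2, 248 and 184 CPM in shKitl and 119, 97.8 and 91.6 CPM in shCtrl. The ephrin gene Efnb1 had 9.72, 8.66 and 8.65 CPM in shKitl and 16.7, 18.5 and 18 CPM in shCtrl, and fell by 1.01. Of 38 tested lineage transcription factors 2 fell and none rose, beside 0.659% and 1.31% of all genes. These were Barx1, of stomach mesenchyme, with 14.2, 16.9 and 20.5 CPM in shKitl and 31.0, 36.7 and 33.6 CPM in shCtrl, and Foxc2, of vessels and mesoderm, with 3.57, 2.34 and 10.1 CPM in shKitl and 10.3, 23.9 and 26.5 CPM in shCtrl. Snai1, the transcription factor Snail, had 19.5, 21.4 and 20.5 CPM in shKitl and 31.1, 33.9 and 32.9 CPM in shCtrl. It stayed below the shCtrl range and was called by DESeq2 over 6 libraries (adjusted p = 0.000507), not at equal P numbers (adjusted p = 0.0853).

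Genes higher in every shKitl library included a tight junction gene and some metabolic enzymes. Cgn, the tight junction protein cingulin (ENSMUSG00000068876, minus strand of chromosome 3, 94760069 to 94786492), stood at 5.34, 7.41 and 6.79 CPM in shKitl cells, against 1.78, 1.57 and 1.42 CPM in shCtrl cells. The means were 6.51 ± 1.07 CPM in shKitl and 1.59 ± 0.183 CPM in shCtrl (SD, n = 3 each), and it rose by 2.09 (SE 0.26, adjusted p = 0.0145). Other epithelial genes stayed low: 4 of the 20 pancreatic epithelial markers in the table had enough counts to test, and of the others Cela3b, Chga, Cpa1, Ins1, Ins2, Pdx1, Prss1 and Ptf1a had none in any of the 6 libraries. Smpdl3b, a membrane sphingomyelinase-like protein, had 21.3, 18.7 and 17.2 CPM in shKitl and 9.62, 8.68 and 8.44 CPM in shCtrl. Both genes differed by nearly the same amount at P14 and P15, 2.01 and 2.06 for Cgn and 0.95 and 0.98 for Smpdl3b.

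Gpt2, the mitochondrial alanine aminotransferase, had 70.2, 83.0 and 95.3 CPM in shKitl and 44.4, 44.5 and 42.3 CPM in shCtrl and rose by 1.01 (SE 0.14). Pck2, the mitochondrial form of phosphoenolpyruvate carboxykinase, had 90.8, 101 and 107 CPM in shKitl and 63.3, 49.1 and 42.8 CPM in shCtrl and rose by 0.90 (SE 0.16). Cth, which makes cysteine from cystathionine, had 20.9, 19.8 and 27.2 CPM in shKitl and 12.6, 11.5 and 10.8 CPM in shCtrl. Its libraries did not overlap, but it did not pass at equal P numbers (log2 0.95, adjusted p = 0.0729). Genes of this kind are known targets of the stress transcription factor ATF4. Of 30 tested ATF4 and unfolded protein response genes, 1 rose at equal P numbers (Nupr1, log2 0.93) and none fell. Of all genes 1.31% rose and 0.659% fell. In that list 7 members were above and 1 below the shCtrl range in all shKitl libraries, beside 9.91% and 9.97% of all genes, and the list median was -0.03 at P14 and 0.23 at P15. Chac1, which degrades glutathione, had 59.1, 41.3 and 44.1 CPM in shKitl and 27.7, 26.2 and 21.3 CPM in shCtrl, and the pseudokinase gene Trib3 had 46.7, 35.5 and 40.2 CPM in shKitl and 28.8, 14.8 and 12.9 CPM in shCtrl. Neither passed at equal P numbers, and DESeq2 called both over the 6 libraries (adjusted p = 0.00284 for Chac1 and 0.0341 for Trib3).

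Further genes without overlap were Ppef1, a calcium-binding phosphatase, with 18.8, 27.8 and 33.4 CPM in shKitl and 7.57, 10.4 and 11.5 CPM in shCtrl, and Dach2, a transcriptional cofactor, with 7.14, 11.5 and 8.69 CPM in shKitl and 2.71, 3.70 and 3.49 CPM in shCtrl. Lncenc1, a non-coding RNA of embryonic stem cells, had 6.79, 7.63 and 9.25 CPM in shKitl and 3.30, 2.37 and 1.68 CPM in shCtrl. All 3 rose at equal P numbers, by 1.79 (SE 0.17), 1.67 (SE 0.27) and 1.58 (SE 0.28). Tmem231, a protein of the ciliary transition zone, had 25.3, 29.1 and 24.8 CPM in shKitl and 15.9, 16.3 and 15.6 CPM in shCtrl, and did not pass (log2 0.75, adjusted p = 0.0677).

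The most uniform group was antigen presentation by MHC class I, in which peptides cut by the immunoproteasome are carried by the TAP transporter to class I heavy chains paired with beta-2 microglobulin. Of 22 list members 18 were tested, and 15 of the 18 rose at equal P numbers, where 1.31% of all genes rose. Their log2 values ran from 1.0 to 2.98, with adjusted p from 0.00572 to 0.0404. None fell. All 18 lay above the shCtrl range in every shKitl library. The list median was 1.57 at P14 and 1.96 at P15, and over the 6 libraries it was 1.9, moving between 1.53 and 2.80 as each library was left out.

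H2-K1 (ENSMUSG00000061232, minus strand of chromosome 17, 33996017 to 34000347), a class I heavy chain, stood at 363, 961 and 344 CPM in shKitl cells, against 246, 95.6 and 56.0 CPM in shCtrl cells. H2-D1, the other classical heavy chain, had 622, 1157 and 489.8 CPM in shKitl and 365, 179 and 124 CPM in shCtrl. B2m, beta-2 microglobulin, had 1573, 1837 and 910.5 CPM in shKitl and 910.1, 464 and 383 CPM in shCtrl. Within shKitl all 3 were highest at P14, and within shCtrl they were lower at P15 than at P14 and lower again at P16. For B2m the lowest shKitl library (P15) and the highest shCtrl library (P14) were nearly level. Compared at equal P numbers, H2-K1 rose by 1.92 (SE 0.15), H2-D1 by 1.57 (SE 0.15) and B2m by 1.0 (SE 0.16). Among the peptide-supply genes, Tap1, a TAP subunit, had 97.5, 175 and 97 CPM in shKitl and 61.3, 20.9 and 8.66 CPM in shCtrl, and the immunoproteasome subunit Psmb8 had 57.0, 121 and 66.5 CPM in shKitl and 27.1, 8.12 and 1.9 CPM in shCtrl. Psmb9 had 11.6, 33.5 and 11.4 CPM in shKitl and 6.05, 1.85 and 0.258 CPM in shCtrl. They rose by 1.87, 2.58 and 2.54. H2-M3, a class I-like molecule that presents formylated peptides, had 22.4, 28.0 and 23 CPM in shKitl and 12.7, 8.96 and 8.92 CPM in shCtrl, a narrower spread than the others, and rose by 1.26 (SE 0.17). The 3 members that did not pass were Psmb10 (log2 1.54, adjusted p = 0.119), Tapbp (1.2, 0.205) and Nlrc5, the transactivator of class I genes (1.41, 0.0532). Cd74, the invariant chain of class II molecules, was low, with 3.85, 5.75 and 2.20 CPM in shKitl and 0.991, 0.402 and 0.215 CPM in shCtrl, and the class II genes H2-Ab1, H2-Eb1 and H2-Aa were not tested. Heavy chain genes share sequence with close copies, so values of single members are uncertain.

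Interferon response genes were higher too, and fewer of them passed. Interferons are secreted signals that switch on genes against viruses. Of 44 list members 43 were tested, and 42, all but Eif2ak2, were higher in shKitl at both P14 and P15. Over all tested genes 68.2% had the same sign at both, counting either direction, and the share higher at both was not counted. For 36 list members the 6 libraries did not overlap, beside 9.91% of all genes. Leaving a library out cannot lower this count. It was 41 without the shKitl P13 library (13.4% of all genes) and 43 without the shCtrl P14 library (25.9%). With any other library left out it stayed at 36. At equal P numbers 3 of the 43 rose and none fell, beside 1.31% and 0.659% of all genes. The 3 were Ifi27l2a (2.79, SE 0.16), Oas2 (2.86, SE 0.29) and Ifit2 (1.17, SE 0.17). DESeq2 in the same P14 and P15 libraries called 17 of the 43 higher, and all 18 antigen presentation genes, beside 2.71% of all genes. The list median was 0.87 at P14 and 2.64 at P15, and the 1 pair of libraries at each P number leaves that difference without a test. Over the 6 libraries the median was 1.87, and 1.37 to 3.12 with each library left out.

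Isg15, a ubiquitin-like protein, had 326, 372 and 395 CPM in shKitl and 233, 66.7 and 23.1 CPM in shCtrl. Its shKitl libraries were close to each other, while the shCtrl values were far apart. Eif2ak2, the RNA-activated kinase PKR, had 151, 169 and 208 CPM in shKitl and 183, 83.4 and 55.1 CPM in shCtrl, and at P14 it was slightly lower in shKitl (log2 -0.12). Oas1g, an oligoadenylate synthetase, had 17.2, 28.2 and 32.7 CPM in shKitl and 4.63, 1.37 and 0.517 CPM in shCtrl, with differences of 2.59 at P14 and 4.51 at P15. All 43 interferon genes and all 18 antigen presentation genes were lower in the shCtrl P16 library than in the shCtrl P14 library. From P14 to P15 within shKitl, 21 of the 43 interferon genes and 16 of the 18 antigen presentation genes were lower. Because shKitl has a P13 and shCtrl a P16 library, differences over all 6 libraries hold the P number as well, and its part in them was tested only by the comparison at equal P numbers and by a 6-library fit with the P number as a covariate, which called no gene by edgeR (1273 at an unadjusted p of 0.05).

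**Figure D3:**
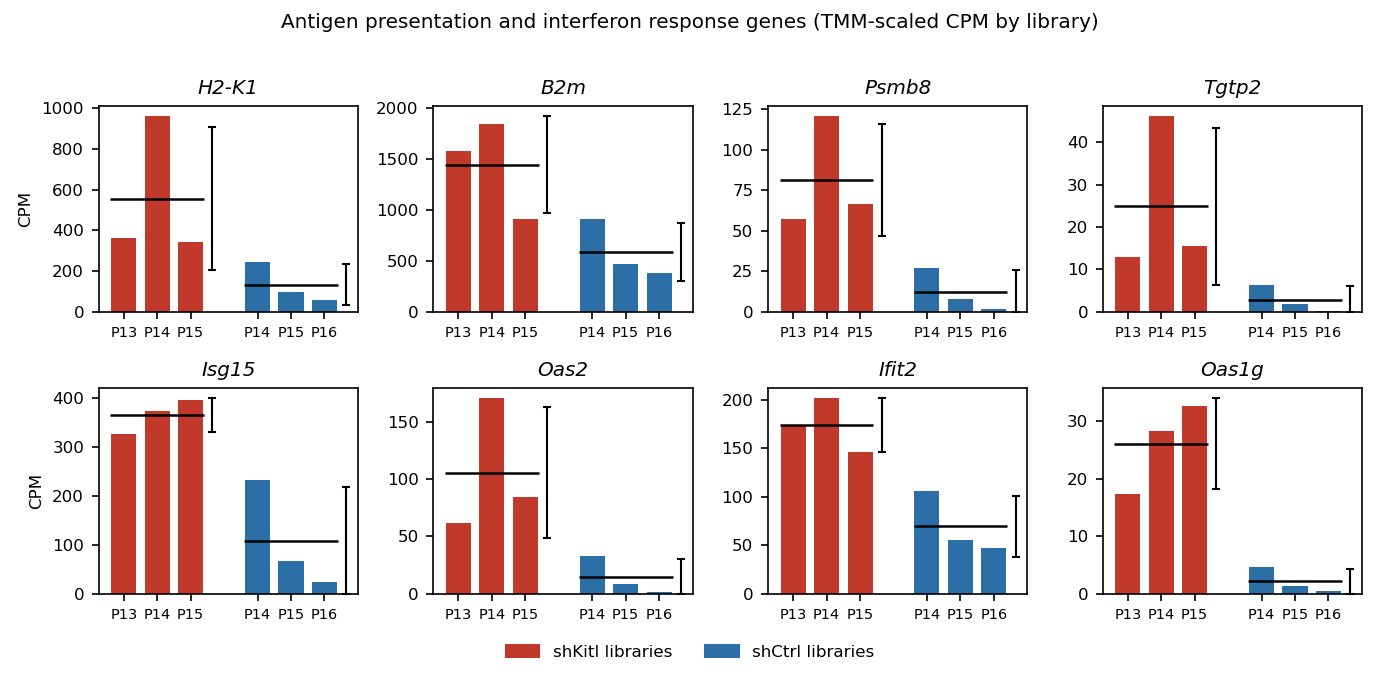
CPM by library of 8 antigen presentation and interferon genes, with shKitl libraries P13 to P15 (red) left of shCtrl libraries P14 to P16 (blue), group means as lines and SD as whiskers cut at 0 (n = 3). The blue bars step down from P14 to P16 in every panel. In the B2m panel the shCtrl P14 library is level with the lowest red bar.

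Promoter sequences of these genes were searched for the response element of interferon-activated transcription factors, written as GAAA, any 2 bases and GAAA on either strand. Windows ran from 250 bases before to 50 after the RefSeq start of each gene (GRCm38.p6). A match was present in 19 of the 31 tested interferon genes that have a window (61.3%) and in 4 of the 15 antigen presentation genes (26.7%), against 3.72% of all 10390 tested genes with a window. It was present in 25 of 136 genes that rose at equal P numbers (18.4%) and in 3 of 68 that fell (4.41%). The genes that rose include members of both lists, so these shares are not separate from each other. The interferon list was made of genes known for that response, so its share does not bear on these cells. The 250 bases before the start are printed for B2m (chr2:122147437-122147686, plus strand) and H2-T23 (chr17:36032702-36032951, minus strand) of class I presentation, for Tgtp2 (chr11:49064213-49064462, minus strand), a GTPase against intracellular pathogens that rose, and for Isg15 (chr4:156200819-156201068, minus strand), which did not pass. Each reads 5′ to 3′ along the gene, with matches in capitals. The run in Isg15 holds 3 overlapping matches. A match describes the letters and shows no binding.
B2m: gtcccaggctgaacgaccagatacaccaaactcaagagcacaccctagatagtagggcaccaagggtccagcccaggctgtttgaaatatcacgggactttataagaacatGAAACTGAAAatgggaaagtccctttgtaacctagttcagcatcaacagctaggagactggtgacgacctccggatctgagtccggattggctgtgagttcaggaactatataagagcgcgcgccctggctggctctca
H2-T23: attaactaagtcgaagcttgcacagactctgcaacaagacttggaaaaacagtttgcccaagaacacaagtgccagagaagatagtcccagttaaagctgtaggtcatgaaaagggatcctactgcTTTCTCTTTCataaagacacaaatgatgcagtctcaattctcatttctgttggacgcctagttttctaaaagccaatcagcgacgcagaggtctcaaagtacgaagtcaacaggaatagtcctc
Tgtp2: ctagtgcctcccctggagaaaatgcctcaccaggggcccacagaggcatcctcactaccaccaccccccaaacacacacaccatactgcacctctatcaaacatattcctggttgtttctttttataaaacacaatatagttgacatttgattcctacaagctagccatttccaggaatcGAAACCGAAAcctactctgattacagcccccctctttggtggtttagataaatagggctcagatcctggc
Isg15: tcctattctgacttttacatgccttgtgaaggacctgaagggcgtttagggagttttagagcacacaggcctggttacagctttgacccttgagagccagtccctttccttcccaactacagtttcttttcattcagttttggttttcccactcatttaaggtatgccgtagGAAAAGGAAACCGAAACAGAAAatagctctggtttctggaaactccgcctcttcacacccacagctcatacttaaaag

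The match of H2-T23 is on the reverse strand (TTTC, any 2 bases and TTTC), and those of B2m, Tgtp2 and Isg15 are on the forward strand. B2m, whose match begins 139 bases before the start, differed by 1.01 at P14 and 0.97 at P15. H2-T23, a non-classical class I gene whose match begins 124 bases before the start, had 31.3, 76.2 and 29.8 CPM in shKitl and 26.6, 9.40 and 3.79 CPM in shCtrl, and rose by 1.59 (SE 0.14). Tgtp2, with its match 70 bases before the start, had 12.9, 46.2 and 15.6 CPM in shKitl and 6.38, 1.81 and 0.215 CPM in shCtrl, and rose by 2.96 (SE 0.19, adjusted p = 0.00524). H2-K1, H2-D1, Tap1, Psmb8 and Psmb9 had no match in their windows.

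Genes that differed most at both P14 and P15 held more of these and some others. On the higher side were Slfn5, an interferon-inducible Schlafen gene, with 1.38, 14.4 and 4.81 CPM in shKitl and 1.26, 0.562 and 0.129 CPM in shCtrl, and Gbp4, a guanylate-binding protein, with 5.23, 25.2 and 9.47 CPM in shKitl and 3.30, 0.321 and 0.345 CPM in shCtrl. Rgcc, a regulator of the cell cycle and complement response, had 2.4, 34.5 and 2.46 CPM in shKitl and 1.62, 0.281 and 0.172 CPM in shCtrl. In these 3 the P14 shKitl library stood far above the P13 and P15 libraries, and the P14 and P15 differences were 3.45 and 2.94 for Slfn5, 2.90 and 4.59 for Gbp4, and 4.35 and 2.83 for Rgcc. The surface proteins Ly6a (Sca-1) and Ly6c1 also rose, Ly6a by 1.49 (SE 0.19) with 480.0, 647 and 445 CPM in shKitl and 278, 133 and 101 CPM in shCtrl. On the lower side Nptx1, neuronal pentraxin, had 2.16, 0.993 and 1.42 CPM in shKitl and 32.1, 12.9 and 7.02 CPM in shCtrl. The groups did not overlap, and the P14 and P15 differences were -4.91 and -3.12, with adjusted p = 0.0525 at equal P numbers and 3.55e-19 by DESeq2 in the same libraries. The urea transporter gene Slc14a1 fell by 2.74 (SE 0.36), with 1.38, 0.958 and 0.969 CPM in shKitl and 9.19, 4.42 and 2.97 CPM in shCtrl.

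For the contractile genes Acta2, Tagln and Myl9 the direction depended on which libraries were compared. Acta2, the smooth muscle actin of activated stellate cells (ENSMUSG00000035783, minus strand of chromosome 19, 34241090 to 34255590), stood at 945, 224 and 94.2 CPM in shKitl cells, against 533, 234 and 172 CPM in shCtrl cells. In both groups it was highest in the library of lowest P number and lowest in that of highest P number, and over the 6 libraries the groups overlapped (log2 0.43, SE 0.83). At equal P numbers it was lower in shKitl, with differences of -1.25 at P14 and -1.31 at P15, and fell by 1.27 (SE 0.14, adjusted p = 0.0124). Tagln, transgelin, had 65.0, 17.8 and 8.54 CPM in shKitl and 37.4, 25.2 and 20.8 CPM in shCtrl, and fell by 1.30 (SE 0.18). The myosin light chain gene Myl9 had 118, 50.6 and 18.7 CPM in shKitl and 84.7, 39.3 and 25.9 CPM in shCtrl, and fell by 0.89, with a small positive difference over 6 libraries (0.32). Cnn1, calponin, had 11.1, 1.92 and 2.42 CPM in shKitl and 18.8, 8.52 and 5.56 CPM in shCtrl, with P14 and P15 differences of -3.25 and -1.78 and adjusted p = 0.0510.

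Of the 27 tested contractile and myofibroblast genes, 21 were lower and 2 higher in shKitl at both P numbers. Over all tested genes 68.2% had the same sign at both, counting either direction, and the share lower at both was not counted. At equal P numbers 3 of the 27 fell and none rose, beside 0.659% and 1.31% of all genes. The list medians were -0.45 at P14, -0.44 at P15 and -0.25 over the 6 libraries. Members below the shCtrl range in all shKitl libraries numbered 7, beside 9.97% of all genes. Leaving a library out cannot lower this count. It was 12 without the shKitl P13 library, beside 13.6% of all genes, and 7 to 12 with each other library left out. The abundant, less variable members were among the 7: Flna, filamin A, had 2191, 1872 and 2057 CPM in shKitl and 2751, 3479 and 3529 CPM in shCtrl, and Myh9, non-muscle myosin, had 1753, 1848 and 1702 CPM in shKitl and 2315, 2304 and 2199 CPM in shCtrl. DESeq2 called both lower over the 6 libraries (adjusted p = 0.00772 for Flna and 0.0230 for Myh9). Rgs5, a marker of pericytes, was low and fell by 3.33 (SE 0.39), with 1.13, 0.674 and 0.485 CPM in shKitl and 9.62, 3.09 and 0.818 CPM in shCtrl. It was the 1 of 7 tested pericyte and smooth muscle markers that fell, and none rose, beside 0.659% and 1.31% of all genes. Of the 7, 3 were higher and 4 lower in shKitl at both P numbers. The whole list summed to 303, 552 and 177 CPM in shKitl and 302, 167 and 123 CPM in shCtrl.

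Several genes of BMP signalling were also lower at equal P numbers. Id1, an inhibitor of differentiation that BMP receptors switch on, had 62.7, 15.5 and 18 CPM in shKitl and 48.8, 59.9 and 62.2 CPM in shCtrl. The shKitl P13 library was at the top of the shCtrl range, and the P14 and P15 libraries were far below it. It fell at equal P numbers by 1.69 (SE 0.14, adjusted p = 0.00572). Id3 had 114, 54.6 and 51.5 CPM in shKitl and 104, 123 and 131 CPM in shCtrl, and fell by 1.08 (SE 0.15). Grem1, a secreted BMP antagonist, fell as well (log2 -0.83, SE 0.15). Of 32 tested TGF-beta and BMP genes 4 fell, these 3 among them, and 1 rose, beside 0.659% and 1.31% of all genes. The 1 that rose was Tgfbi, a secreted matrix protein that TGF-beta induces, with 36.5, 166 and 49.9 CPM in shKitl and 53, 19 and 9.82 CPM in shCtrl (log2 1.53, SE 0.14). Bmp4 had 23.4, 22.4 and 2.83 CPM in shKitl and 5.59, 2.05 and 1.34 CPM in shCtrl, and did not pass (adjusted p = 0.156). DESeq2 called it higher over the 6 libraries (adjusted p = 0.0341) and with the P number as a block (adjusted p = 0.0435).

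**Figure D4:**
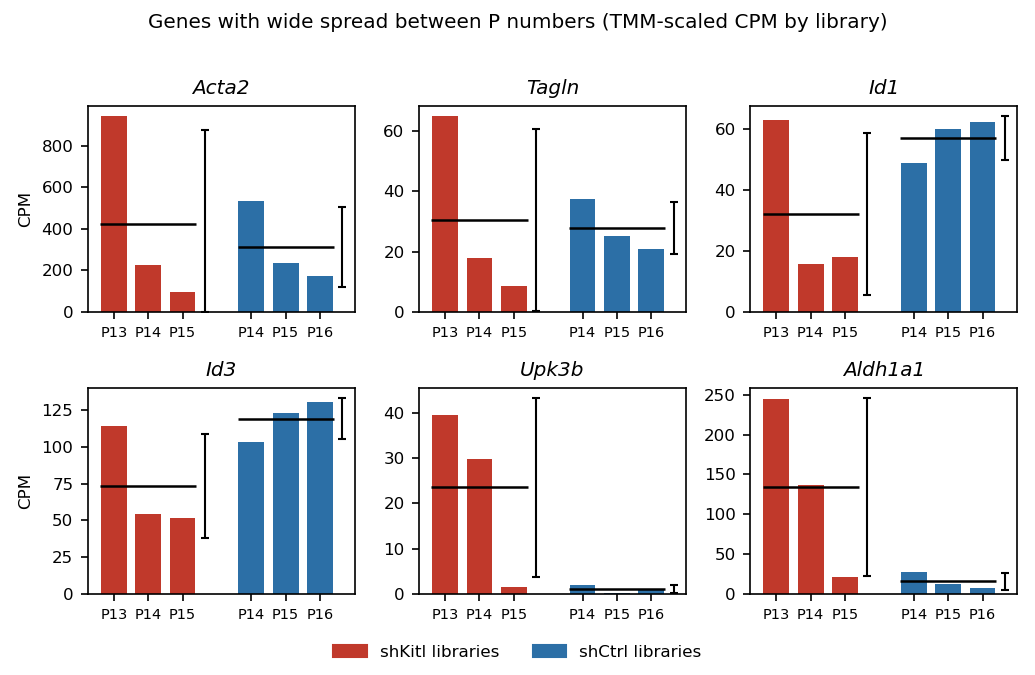
CPM by library of 6 genes with a wide spread between P numbers, with shKitl libraries P13 to P15 (red) left of shCtrl libraries P14 to P16 (blue), group means as lines and SD as whiskers cut at 0 (n = 3). Acta2, Tagln, Id1 and Id3 are high in the shKitl P13 library, while at P14 and P15 their red bars are lower than the blue bars of the same P number.

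The median of the collagen list was higher in shKitl, and the number of members that passed depended on the fit. Of 21 tested collagens 14 were higher at both P numbers and 3 lower. Over all tested genes 68.2% had the same sign at both, counting either direction, and the share higher at both was not counted. At equal P numbers 1 collagen rose and none fell, beside 1.31% and 0.659% of all genes. DESeq2 in the same P14 and P15 libraries called 8 of the 21 higher and none lower, beside 2.71% and 1.41% of all genes. In all shKitl libraries 4 lay above the shCtrl range, beside 9.91% of all genes. Over the 6 libraries the list median was 0.97, and 0.43 without the shKitl P14 library. It was 0.97 at P14 and 0.52 at P15. Col1a1, a chain of type I collagen, had 3118, 6381 and 1719 CPM in shKitl and 1709, 927 and 709 CPM in shCtrl. All shKitl libraries lay above the shCtrl range, the P15 library only just, and it did not pass (log2 1.40, SE 0.26, adjusted p = 0.0576). Col3a1 had 268, 1959 and 246 CPM in shKitl and 298, 93.8 and 40.1 CPM in shCtrl, so that the P14 library of shKitl stood alone. Col5a3 was the collagen that rose, by 1.34 (SE 0.15), although its 6 libraries overlapped, with 15.1, 86.8 and 25.7 CPM in shKitl and 30.6, 11.6 and 5.47 CPM in shCtrl. Matrix glycoproteins and proteoglycans went in both directions. Vcan, the large proteoglycan versican, had 111, 153 and 235 CPM in shKitl and 489, 366 and 341 CPM in shCtrl, below the shCtrl range throughout (log2 -1.26), and Tnc, tenascin C, had 90.9, 148 and 92.1 CPM in shKitl and 211, 185 and 167 CPM in shCtrl, also below it. Neither passed at equal P numbers, and DESeq2 called both over 6 libraries (adjusted p = 0.00565 for Vcan and 0.0435 for Tnc). Dcn, decorin, had 160.1, 300.4 and 26.7 CPM in shKitl and 60.1, 20.5 and 19.7 CPM in shCtrl, with a difference of 2.32 at P14 and 0.38 at P15.

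Genes of cholesterol and fatty acid synthesis were slightly higher by their median. Of 31 tested members 19 lay above and 1 below the shCtrl range in all shKitl libraries, beside 9.91% and 9.97% of all genes. Their list median was 0.53 over the 6 libraries, 0.14 at P14 and 0.56 at P15. DESeq2 called 8 higher over the 6 libraries, beside 2.2% of all genes, and 1 rose at equal P numbers, beside 1.31%. Nsdhl, which removes methyl groups from sterols, had 124, 96.0 and 94.4 CPM in shKitl and 66.0, 48.8 and 44.9 CPM in shCtrl. Tm7sf2, a sterol reductase and the 1 that rose (log2 1.2, SE 0.22), had 14.7, 13.2 and 6.49 CPM in shKitl and 6.05, 2.69 and 2.02 CPM in shCtrl.

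Mitosis genes were lower at P14 and nearly level at P15. Of 30 tested mitosis genes 23 were lower and none higher in shKitl at both P numbers. Over all tested genes 68.2% had the same sign at both, counting either direction, and the share lower at both was not counted. The list median was -0.68 at P14 and -0.09 at P15, and no mitosis gene passed. Values of the mitosis genes in shKitl cells were higher at P15 than at P14 for all 30. Mki67, the proliferation marker Ki-67, had 244, 223 and 366 CPM in shKitl and 454, 515 and 548 CPM in shCtrl, below the shCtrl range in every shKitl library (adjusted p = 0.0963). Ccne2, a cyclin of S phase entry, had 25.1, 15.3 and 25.4 CPM in shKitl and 41.2, 48.1 and 54.3 CPM in shCtrl and fell by 1.16 (SE 0.17). It was the 1 of 30 tested DNA replication genes that fell, and none rose, beside 0.659% and 1.31% of all genes. Cytosolic ribosomal protein genes differed little, with a median of -0.04 at P14 and -0.06 at P15 over 28 members and none called.

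**Figure D5:**
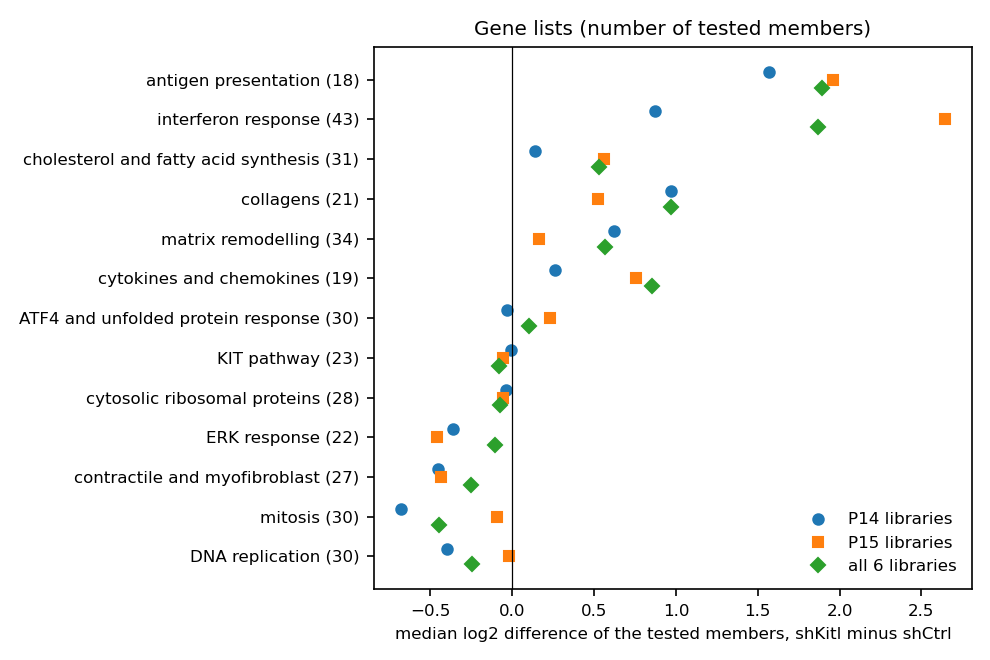
Median log2 difference, shKitl minus shCtrl, over the tested members of 13 gene lists (numbers in parentheses), between the P14 libraries (circles), between the P15 libraries (squares) and in the fit to all 6 libraries (diamonds). Of these 13 lists antigen presentation and interferon response lie highest at P15 and over the 6 libraries, antigen presentation and collagens at P14. The mitosis list is low at P14 and near 0 at P15.

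The mesothelial genes Upk3b and Gpm6a and the retinoid enzyme gene Aldh1a1 were highest in the P13 and P14 shKitl libraries. Upk3b, a uroplakin gene of mesothelium, had 39.5, 29.8 and 1.42 CPM in shKitl and 1.98, 0.0804 and 0.991 CPM in shCtrl, so that the P13 and P14 libraries of shKitl stood apart and the P15 library lay within the shCtrl range. With shCtrl at P15 lower still, it rose at equal P numbers by 3.91 (SE 0.28). Gpm6a, a membrane glycoprotein of neurons and mesothelium, had 18.3, 12 and 1.75 CPM in shKitl and 1.85, 0.522 and 0.646 CPM in shCtrl, and rose by 2.36 (SE 0.33). Of 16 mesothelial markers 6 had enough counts to test, and the whole list summed to between 112 and 187 CPM in shKitl libraries and between 82.9 and 108 CPM in shCtrl libraries. Aldh1a1, a retinaldehyde dehydrogenase, had 245, 136 and 21.5 CPM in shKitl and 27.6, 11.5 and 7.49 CPM in shCtrl, with differences of 2.3 at P14 and 0.89 at P15, and did not pass (adjusted p = 0.195). Endothelial markers summed to between 92.7 and 167 CPM in shKitl and between 90.1 and 108 CPM in shCtrl libraries, and Schwann cell markers to between 11.4 and 49.9 CPM in shKitl and between 5.51 and 16.2 CPM in shCtrl libraries, with Sox10 at 0 in all. Leukocyte and mast cell markers summed to 8.17 to 21.3 CPM in shKitl and 5.47 to 10.2 CPM in shCtrl. The part that such cells have in any difference above was not tested.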

How the data were processed

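PolyA-selected RNA was sequenced from 12 libraries, per the labels' protocols. The authors deposited raw read counts per gene, and the submitters' processing notes list STAR 2.5.2b, featureCounts, Subread 1.5.2, DESeq2 and GRCm38. The authors deposited the same libraries as TPM, in which counts are set relative to gene length and to the library. The sources used here do not give the annotation release, the strand setting or the gene length used. Groups came from sample titles and P numbers from descriptions. Of 49763 entries 92 are ERCC spike-ins and were left out, and entries with no name (174) held at most 0.00499% of a library's counts. Coordinates came from GENCODE M21, which held 49412 of 49671 gene IDs.

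Genes were kept by filterByExpr (14386). The main test was edgeR 4.0.16 (R 4.3.3) quasi-likelihood with TMM scaling and Benjamini-Hochberg adjustment over all tested genes, on the 6 hairpin libraries (biological coefficient of variation 0.282). These 6 were fitted alone because 1 Egfp-overexpressing library stands apart, and a fit to all 12 was known to call no gene. Differences at a P number are of log2 CPM with a prior count of 2. Alternatives used DESeq2 1.42.0, limma 3.58.1 (voom, and log2(TPM + 1) or log2(TPM + 0.1)), other scalings, filters and libraries. Promoters came from RefSeq. Scripts were tested on simulated data with a smaller coefficient of variation than these 6 libraries and with P number effects equal in both groups. That test does not give the error rate of the calls made here.

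Genes and lists were chosen with earlier results of these data known. The rule named Kitl and Kit, up to 10 genes higher and 10 lower without overlap and with a mean CPM of at least 5 (filled by the smallest p, since none passed), list members of smallest p, and 5 genes each way at equal P numbers. Others, such as H2-K1, Acta2, Id1, Fgf2, Meg3 and Isg15, were named after their values were seen. Some genes are not reported here by name, although counts over all genes and lists include them.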

Additional observations from a re-analysis of the deposited data

How the results depend on the processing

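The 6-library count of 0 became 508 with DESeq2 (298 higher, 210 lower), 81 with all libraries but 1 Egfp-overexpressing library (34 and 47), 23 with every gene that has a count (11 and 12), 15 with ERCC scaling (7 and 8) and, at P14 and P15 with the P number as a block, 287 with edgeR, 542 with DESeq2 and 304 with limma-voom. It stayed at 0 with DESeq2 size factors in edgeR, library totals, a CPM of at least 5, limma-voom, both TPM fits, the P number as a numeric covariate, all 12 libraries and the P14 and P15 libraries without a block, and was 0 to 1 with each library left out. Replicate numbers did not pair the samples throughout (correlations of deviations 0.154, -0.288 and 0.566 for the 3 pairs), and the replicate block gave 0 calls. Libraries of equal P number had 0.585 at P14 and 0.352 at P15. The P15 value is below the 0.566 of shKitl P15 with shCtrl P16, so the pairing by P number is uncertain too.

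Kitl passed with ERCC scaling (-1.54, adjusted p = 0.0206), every gene that has a count (-1.49, 0.00400), DESeq2 (-1.51, 7.35e-17), without the Egfp-overexpressing library (-1.49, 0.000725), and with the P number as a block by edgeR (-1.43, 0.0103), DESeq2 (-1.44, 8.00e-08) and limma-voom (-1.43, 0.0139). Asking for a log2 of 0.5 at both P numbers gave 1507 genes in place of 410, and ERCC scaling left 1314 genes without overlap (596 higher, 718 lower) in place of 2859. ERCC scaling moved the median of all genes by -0.07 and library totals by 0.06.

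Directions turned for 3 of the 94 other named genes. Acta2 was negative with limma-voom (-0.0232), the TPM fits (-0.0278 and -0.0286), the replicate block (-0.0337), the P number as covariate (-1.27), P14 and P15 without (-1.27) and with the block (-1.27, DESeq2 -1.29, limma-voom -1.27), and without shKitl P13 (-0.98), and ran to 1.05 with other libraries left out. Tagln was negative with ERCC scaling (-0.11), limma-voom (-0.33), TPM (-0.30 and -0.32), the replicate block (-0.32), the covariate (-1.25), P14 and P15 without (-1.25) and with the block (-1.30, DESeq2 -1.32, limma-voom -1.27), without shKitl P13 (-1.07) and without shCtrl P16 (-0.0276), and ran to 0.57 with other libraries left out. Myl9 was negative with the covariate (-0.95), P14 and P15 without (-0.84) and with the block (-0.89, DESeq2 -0.91, limma-voom -0.88) and without shKitl P13 (-0.53), and ran to 0.93 with other libraries left out. The cause was not tested. Of the named genes' 2151 values under these settings, 318 newly passed the threshold. Depth limits Kit and other genes of a few counts.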
